A study of Drosophila melanogaster with 34 samples.

Results

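The 32 genes described here encode subunits of the Polycomb and trithorax groups and of the ATP-dependent nucleosome remodelers, and they were chosen by name from the 17559 genes in the table of nuclear RNA counts. They were followed in nuclei of the mushroom body (MB), the center of olfactory memory in the fly brain, together with the binding sites of CBP, Rpd3 and CoRest-C at the same genes. The 5 RNA groups were naïve flies, flies taken directly after 5 min of red light (light), and flies that rested for 5, 10 or 15 min after the 5 min of light (rest5, rest10 and rest15), with 3 libraries in each group. All flies, the naïve ones included, were of the line labelled CS10 and carried CsChrimson, a cation channel that opens in red light, and FLAG-KASH, a tagged protein of the nuclear envelope by which the nuclei were pulled down. *MBp-LexA*, a driver active in MB neurons, expressed both, and the CoRest-C detected by ChIP was a myc-tagged copy driven in the MB by *MBsw*. Each preparation pooled the heads of many flies, and no group of illuminated flies without CsChrimson is among the 5, so red light and activation of the neurons cannot be told apart here. Nothing in the labels says how separate the 3 replicates of a group were, so p-values measure the spread between these samples, which may be technical.

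Polycomb-group proteins keep genes silent over many cell divisions. PRC2 methylates a histone tail, PRC1 reads that methylation, compacts chromatin and ubiquitylates another histone, and DNA-binding proteins such as Pho bring the complexes to Polycomb response elements. Trithorax-group proteins oppose them: the COMPASS family methylates the histones of active genes, and the BAP complex slides and evicts nucleosomes with the ATPase Brahma. In neurons these complexes hold the identity of the cell and set how far a gene can respond to activity.

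Library totals ran between 10392334 and 18809246 counts, and all 32 genes passed the filter on low counts, with between 25 (*esc*) and 5900 (*kis*) counts in a library and at least 100 in every library for 30 of the 32. MB neuron markers summed to between 4356 and 5569 normalized CPM (counts scaled to a common depth with the TMM factors of edgeR) in every library, and photoreceptor markers to between 26039 and 47310. The photoreceptor markers summed to 39525 to 47310 in rest15 against 26259 to 27102 in rest10, where all 10 of them were called higher in rest15. In rest10 against naïve flies 6 of the 10 were called lower (median log2 fold change -0.33), as were 3 of 8 glia markers with 1 higher. Of the 12 MB neuron markers 2 were called higher and 2 lower in that comparison. The 12 log2 fold changes ran from -0.95 (*prt*) to 0.48 (*toy*), with a median of -0.08. The fat body markers summed to 21822 to 23096 in rest15 against 15592 to 16153 in rest10. Markers of the male reproductive tract summed to 0.561 to 1.10 in rest10 against 190.4 to 214 in naïve flies, and to 32.7 to 47.4 in rest15, where all 6 tested were higher than in rest10. The part of this cell mixture in the results below was not tested, and in such bulk RNA fewer cells of a type and less RNA per cell cannot be told apart. Among the naïve libraries, replicate 2 differed most from the other 2 (chi-square per degree of freedom of 34.2 and 30.2, against 6.30 between replicates 1 and 3), and the value without it is given for each call on the 32 genes that ends.

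Of the 32 genes 9 were called in at least 1 of the 5 comparisons and 23 in none, beside 37.8% of all tested genes called in at least 1. *trx* rose directly after the light and at 5 and 10 min of rest and fell by 15 min, and the other 8 were called in 1 or 2 comparisons each. A gene was called when its Benjamini-Hochberg adjusted p over the 11670 tested genes was under 0.05 in edgeR's quasi-likelihood test. In light against naïve flies, *trx* was called higher and *Sce* lower, beside 4.88% of all tested genes called higher and 3.45% called lower. In rest5 against naïve flies, *trx* and *Set1* were called higher and 0 members lower (3 had an unadjusted p under 0.05, and DESeq2 called 0), beside 8.75% and 6.02% of all genes. In rest10 against naïve flies, 4 members were called higher (*trx*, *Set1*, *Mi-2* and *kis*) and 4 lower (*Pc*, *Sce*, *E(z)* and *Iswi*), or 8 of 32, beside 14.5% of all genes called higher, 13.9% lower and 28.4% in either direction. In rest15 against naïve flies, *Mi-2* was called higher and *E(z)* lower, beside 5.41% and 4.24% of all genes. Between the last times, rest15 against rest10, 0 members were called higher (0 at an unadjusted p under 0.05, and 0 by DESeq2) and *trx* and *ash2* were called lower, beside 6.71% and 10.2% of all genes. A joint test over the 5 groups called *trx*, *Set1*, *ash2* and *Mi-2*, or 4 of 32, beside 30.1% of all genes. *trx* was called by the joint test under every alternative run. With the replicate number as a block *trx* and *Set1* alone were called, as without replicate 3 of rest5, replicate 3 of rest10 or replicate 1 of rest15, and *trx* alone was called without replicate 2 of rest5 or replicate 1 of rest10. Without naïve replicate 2 the joint test called 6 members, with *Psc*, *E(z)* and *Su(z)12* added and *Mi-2* lost. Among the 24 members not called in rest10 against naïve flies the 95% interval of the log2 fold change stayed within ±0.5 for 18, and the widest bounds were -0.76 (*escl*) and 0.74 (*esc*). In rest15 against rest10 it stayed within ±0.5 for 22 of 30.

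The 3 libraries of rest10 lay all above the 3 naïve ones for 10 members (*Su(z)2*, *esc*, *pho*, *phol*, *trx*, *Set1*, *brm*, *Mi-2*, *kis* and *Trl*) and all below for 4 (*Sce*, *E(z)*, *Snr1* and *Iswi*), beside 41.5% of all tested genes that separated in either direction. Those of rest15 lay all above the rest10 ones for 2 members (*Pc* and *Snr1*) and all below for 11 (*ph-p*, *Psc*, *Su(z)2*, *esc*, *escl*, *Su(z)12*, *trx*, *ash2*, *Set1*, *Utx* and *dom*), beside 36.6%. The median log2 fold change of the 32 genes was 0.06 in rest10 against naïve flies and -0.03 in rest15 against rest10, while the medians of all tested genes were -0.05 and 0.03. These counts depended on how the libraries were scaled: with library size alone the median of all genes in rest10 against naïve flies moved to -0.17 and the members split into 1 higher and 5 lower, and with upper quartile scaling it moved to -0.11 and the split was 2 and 5, while DESeq2 gave 4 and 2. Without replicate 1 of rest10, 2 members (*trx* and *Pc*) were called in rest10 against naïve flies, and without naïve replicate 2 or rest10 replicate 2 the count was 4, and without naïve replicate 3 or rest10 replicate 3 it was 5. In rest15 against naïve flies no call was left without naïve replicate 3, rest10 replicate 1, or replicate 1 or 3 of rest15. In rest15 against rest10 the count was 5 without rest15 replicate 3, and without naïve replicate 2 it was 6, with *Psc*, *esc*, *Su(z)12* and *Set1* added, all lower.

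**Figure D1:**
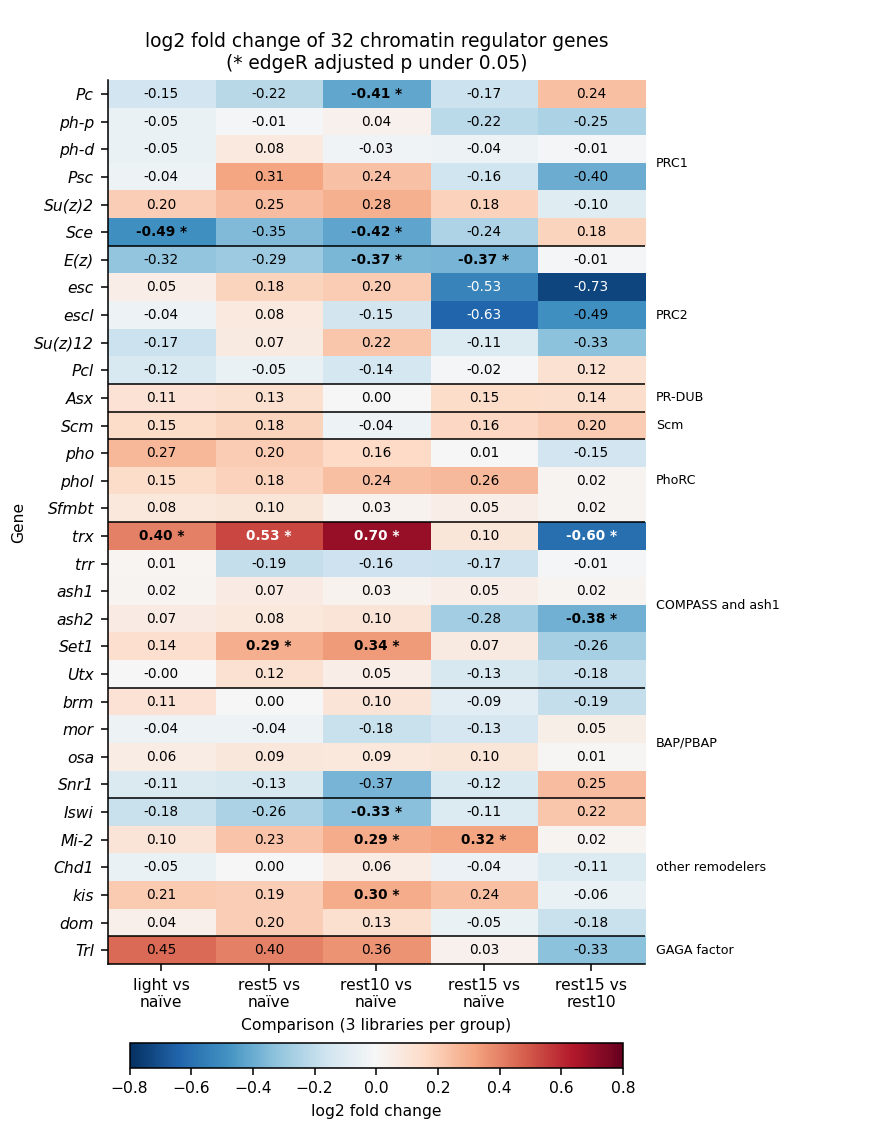
Heat map of the log2 fold change of the 32 genes (rows, parted by complex) in 5 comparisons (columns, 3 libraries per group), with red for higher and blue for lower in the first-named group and an asterisk for an edgeR adjusted p under 0.05. *trx* carries the darkest red, 0.70 in rest10 against naïve flies, and -0.60 in rest15 against rest10.

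*trx* encodes a histone methyltransferase of a COMPASS-like complex and gave the trithorax group its name. *trx* was at 114, 85.5 and 109 normalized CPM in naïve flies, 134, 134 and 139.6 in light, 139, 149.6 and 158 in rest5, 168, 179 and 155 in rest10 and 111, 104 and 115.2 in rest15. The libraries of light, rest5 and rest10 all lay above the naïve ones, and those of rest15 overlapped them. The log2 fold change against naïve flies was 0.40 ± 0.10 in light (SE, adjusted p = 0.00836), 0.53 ± 0.10 in rest5 (adjusted p = 2.70e-04) and 0.70 ± 0.10 in rest10 (adjusted p = 3.36e-06), the last a 1.62-fold level. In rest15 it was 0.10 ± 0.10 against naïve flies (95% interval -0.11 to 0.30, adjusted p = 0.614), and -0.60 ± 0.10 against rest10, where the level fell by 34.1% (adjusted p = 4.76e-05). The rises in rest5 and rest10 and the fall in rest15 passed the threshold under all 22 alternatives, with adjusted p between 9.85e-11 and 5.99e-04 for rest10, and the rise in light was lost when only the 6 libraries compared were fitted. The gene lies at chr3R:14263358-14286903 (dm6) on the minus strand and shares 570 bp of its exons, 4.06%, with the antisense RNA *asRNA:CR46020*, which had 97 to 387 counts in the libraries against 1118 to 2999 for *trx*. The kit does not mark strand, so reads in that stretch cannot be told apart.

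**Figure D2:**
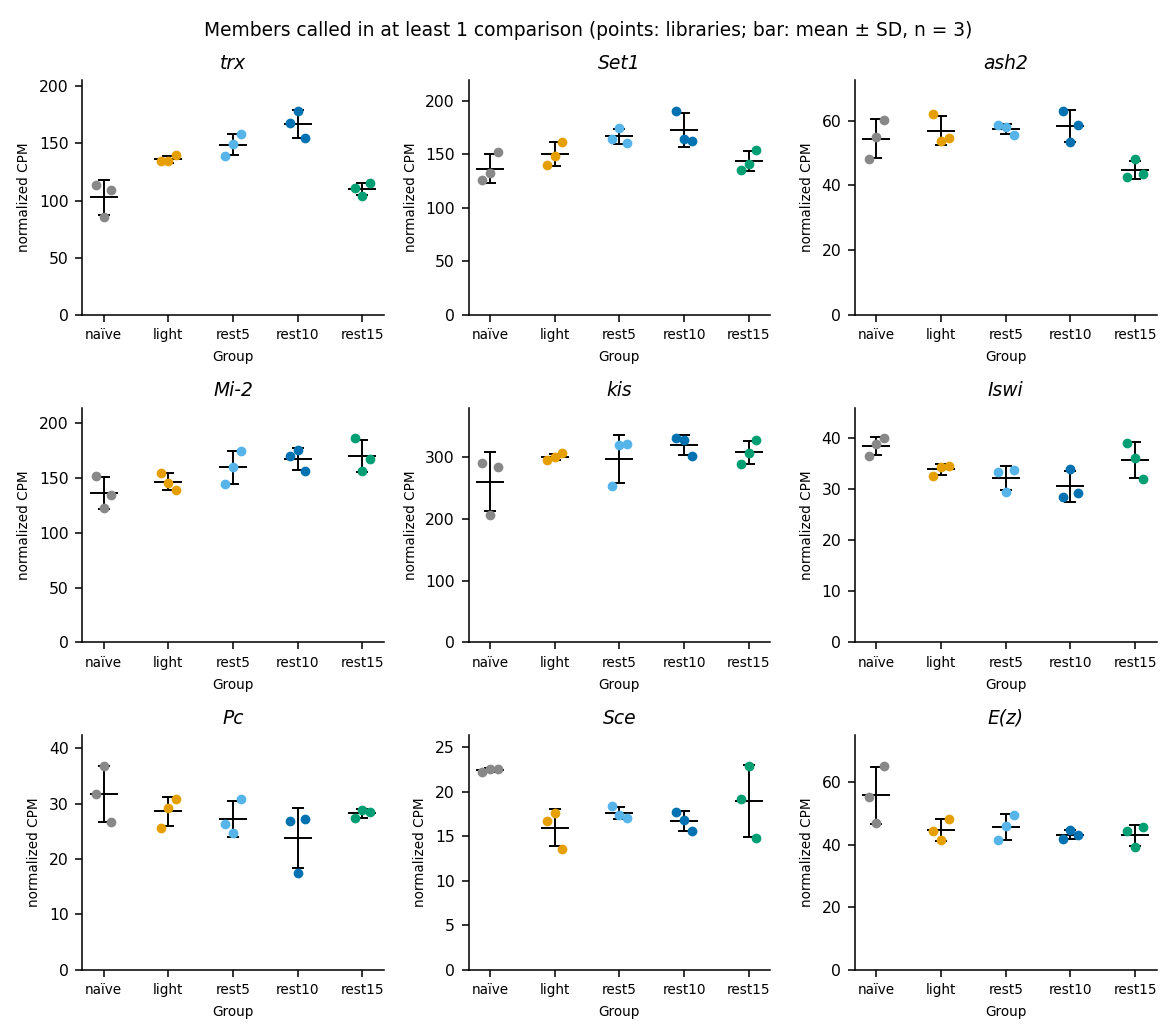
Normalized CPM of the 9 genes called in at least 1 comparison (each axis from 0), with 1 point per library in naïve, light, rest5, rest10 and rest15 and the mean ± SD (n = 3) in black. *trx* climbs to 167 ± 12.0 in rest10 and stands at 110.1 ± 5.47 in rest15, while *Sce* lies below its naïve points in light, rest5 and rest10, *E(z)* in rest10 and rest15, and *Mi-2* lies above them in rest10 and rest15.

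CBP and CoRest-C were both bound at *trx*, and Rpd3 had no site there. CBP, the acetyltransferase encoded by *nej*, had 3 sites in the gene, the strongest 4.55 kb wide with a fold enrichment of 34.8, which reached 0.12 kb before the start site and 4.43 kb into the gene. Another with a fold enrichment of 21.7 lay 7.22 to 9.35 kb inside the gene. The only CoRest-C site (fold enrichment 4.40) sat over the start site, between 0.18 kb before it and 0.34 kb after it, within the CBP site except at its outer edge. The promoter, 250 bases before to 50 after the start site at chr3R:14286854-14287153 (dm6, minus strand, RefSeq genome), is shown because both sites reach into it. Capitals would mark GAGAG, the core letters recognized by the GAGA factor, or GCCAT, the core of the Pho site, on either strand, and the window holds neither, which says only that these letters are not in it.
trx: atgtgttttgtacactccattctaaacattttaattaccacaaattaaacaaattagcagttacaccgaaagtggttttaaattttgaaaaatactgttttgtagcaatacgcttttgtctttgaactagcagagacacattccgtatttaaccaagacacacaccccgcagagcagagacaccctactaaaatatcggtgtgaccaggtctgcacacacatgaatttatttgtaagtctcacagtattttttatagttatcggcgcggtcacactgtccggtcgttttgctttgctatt
Windows of this length held GAGAG at 34.9% and GCCAT at 40.1% of 16579 start sites of tested genes.

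The other COMPASS members moved less. *Set1*, the main methyltransferase of the family, lies at chr3L:25107594-25115180 and was at 126, 132 and 152 normalized CPM in naïve flies, 139.8, 149 and 162 in light, 165, 175 and 161 in rest5, 191, 165 and 163 in rest10 and 136, 141 and 154 in rest15. All rest5 and rest10 libraries lay above the naïve ones, while light and rest15 overlapped them. Its log2 fold change was 0.29 ± 0.09 in rest5 (adjusted p = 0.0373) and 0.34 ± 0.09 in rest10 (adjusted p = 0.00808), and -0.26 ± 0.09 in rest15 against rest10 (adjusted p = 0.0534). The call in rest10 ended with library size alone and without rest10 replicate 1 (adjusted p between 0.00180 and 0.0804 over the alternatives), and the call in rest5 ended without naïve replicate 2 (0.26, adjusted p = 0.0722) and in all under 11 of 22 alternatives. *Set1* shares 257 bp of its exons, 4.63%, with *MED21* on the opposite strand, where reads cannot be told apart. *MED21* had 665 to 1805 counts in the libraries against 1370 to 3404 for *Set1*, and its part in these calls was not tested. *ash2*, a core subunit that all COMPASS complexes share, was at 48.2, 54.9 and 60.2 normalized CPM in naïve flies, 62.2, 53.9 and 54.7 in light, 58.8, 58.0 and 55.7 in rest5, 63.1, 53.4 and 58.6 in rest10 and 42.7, 48.1 and 43.6 in rest15. Every rest15 library lay below every library of light, rest5, rest10 and naïve flies. It fell by 23.3% in rest15 against rest10 (log2 fold change -0.38 ± 0.11, adjusted p = 0.0136), and was -0.28 ± 0.11 against naïve flies (adjusted p = 0.109). The call against rest10 was lost without replicate 1 of rest10 or replicate 1 of rest15.

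*trr*, the methyltransferase that acts at enhancers, *Utx*, the demethylase of its complex that removes the PRC2 mark, and *ash1*, a separate trithorax methyltransferase, were called in no comparison. *trr* ranged over 24.5 to 43.5 normalized CPM in the 15 libraries, *Utx* over 42.7 to 58.0 and *ash1* over 39.1 to 49.9. Their log2 fold changes in rest10 against naïve flies were -0.16, 0.05 and 0.03. The 95% interval of *ash1* was -0.21 to 0.27 there. *ash1* spanned the narrowest range of the 3 genes, and *Utx* lay wholly below both rest10 and naïve flies in rest15, at 42.7, 47.0 and 47.5 normalized CPM, with an adjusted p of 0.264 against rest10.

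Of the remodelers, the NuRD ATPase *Mi-2* and the CHD-family *kis* (kismet) were higher in rest10 and the nucleosome-spacing ATPase *Iswi* was lower. *Mi-2* (chr3L:19882051-19910215) was at 152, 123 and 135 normalized CPM in naïve flies, 155, 146 and 139 in light, 144, 160.5 and 175 in rest5, 171, 176 and 156 in rest10 and 186, 157 and 167 in rest15. Both rest10 and rest15 lay wholly above the naïve flies, and the call was the same at both times, though it was lost under 6 of 22 alternatives in rest10 and 7 in rest15, library size alone among both. Its log2 fold change was 0.29 ± 0.10 in rest10 (adjusted p = 0.0233), 0.32 ± 0.10 in rest15 (adjusted p = 0.0363), and 0.02 ± 0.10 in rest15 against rest10 (95% interval -0.18 to 0.22). *kis* (chr2L:210735-250823) was at 291, 206 and 285 normalized CPM in naïve flies, 296, 300.5 and 306 in light, 253, 319.9 and 322 in rest5, 331, 328 and 302 in rest10 and 289, 307 and 328 in rest15, and naïve replicate 2 was the lowest library by a wide margin. Its log2 fold change in rest10 was 0.30 ± 0.11 (adjusted p = 0.0392). Without naïve replicate 2 it was 0.15 (adjusted p = 0.243), and that of *Mi-2* was 0.22 (adjusted p = 0.0896) in rest10 and 0.25 (adjusted p = 0.113) in rest15. *Iswi* was at 36.5, 38.8 and 39.9 normalized CPM in naïve flies, 32.7, 34.4 and 34.5 in light, 33.4, 29.4 and 33.8 in rest5, 28.4, 33.9 and 29.3 in rest10 and 39.1, 36.1 and 31.99 in rest15, and its rest10 libraries lay below every naïve one. It fell by 20.6% in rest10 against naïve flies (log2 fold change -0.33 ± 0.12, adjusted p = 0.0348), a call that 6 of 22 alternatives ended, among them leaving out naïve replicate 2 (-0.32, adjusted p = 0.0614) or 3 or rest10 replicate 1 or 3 (log2 fold change -0.45 to -0.28 over all 22).

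*Chd1*, which spaces nucleosomes during elongation, and *dom*, the ATPase that exchanges histone variants, were not called. Their log2 fold changes in rest10 against naïve flies were 0.06 ± 0.11 and 0.13 ± 0.09. None of the 4 BAP and PBAP members was called in any comparison: the ATPase *brm*, the scaffold *mor*, *osa*, which defines BAP, and the core subunit *Snr1*. *brm* ranged over 97.3 to 132 normalized CPM, *osa* over 134 to 163 and *mor* over 47.2 to 79.7. *mor* was at 67.1, 47.2 and 79.7 normalized CPM in naïve flies, 62.2, 61.6 and 64.7 in light, 57.0, 61.4 and 70.2 in rest5, 56.02, 54.5 and 60.9 in rest10 and 53.2, 66.7 and 56.9 in rest15, with the lowest naïve library again replicate 2, and without that library it was called lower in rest10. *Snr1* came nearest to the threshold, at 22.5, 24.7 and 21.98 normalized CPM in rest10 against 29.4, 30.1 and 30.1 in naïve flies, with no overlap and a log2 fold change of -0.37 ± 0.14 (adjusted p = 0.0523).

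Within PRC1, *Sce* and *Pc* were called lower in rest10, though DESeq2 called neither, and the other members were not called. *Sce*, the ubiquitin ligase also known as dRing, lies at chr3R:27680431-27682029 and was at 22.2, 22.5 and 22.6 normalized CPM in naïve flies, 16.7, 17.6 and 13.6 in light, 18.4, 17.4 and 17.0 in rest5, 17.8, 16.8 and 15.6 in rest10 and 19.2, 22.9 and 14.9 in rest15. The naïve libraries were close together and above all libraries of light, rest5 and rest10, and 1 rest15 library exceeded them. It fell by 28.8% in light (log2 fold change -0.49 ± 0.16, adjusted p = 0.0485) and by 25.4% in rest10 (log2 fold change -0.42 ± 0.16, adjusted p = 0.0423), and in rest5 the value was -0.35 ± 0.16 (adjusted p = 0.139). Both calls were near the threshold: 14 of 22 alternatives ended the call in light and 9 the call in rest10. Without naïve replicate 2 the values were -0.49 (adjusted p = 0.0646) in light and -0.42 (adjusted p = 0.0676) in rest10. *Pc*, the chromodomain protein that binds the PRC2 mark (chr3L:21306138-21318020), was at 31.8, 36.8 and 26.7 normalized CPM in naïve flies, 25.7, 29.2 and 30.9 in light, 26.3, 24.6 and 30.9 in rest5, 26.8, 17.5 and 27.1 in rest10 and 27.4, 28.9 and 28.4 in rest15. The rest10 and naïve libraries overlapped, and rest10 replicate 2 was the lowest of the 15. The log2 fold change was -0.41 ± 0.15 (adjusted p = 0.0423) and 5 of 22 alternatives ended the call, among them DESeq2, leaving out rest10 replicate 2 (-0.24, adjusted p = 0.280) and leaving out naïve replicate 2 (-0.30, adjusted p = 0.177).

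*Psc* and *Su(z)2*, related RING-finger proteins, ranged over 18.5 to 31.5 and 28.8 to 47.5 normalized CPM. *Psc* was at 19.4, 19.8 and 20.7 normalized CPM in rest15 against 25.8, 23.2 and 29.9 in rest10. In rest15 against rest10 *Psc* had a log2 fold change of -0.40 ± 0.15 (adjusted p = 0.0633), and in rest10 against naïve flies *Su(z)2* had 0.28 ± 0.12 (adjusted p = 0.0874). *ph-p* and *ph-d*, adjacent copies of polyhomeotic on the X chromosome, had 0.04 ± 0.10 and -0.03 ± 0.13 in rest10 against naïve flies. They share 1951 of their exonic 50-base words, 29.6% of *ph-p* and 33.5% of *ph-d*, so their separate counts are uncertain.

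In PRC2, only the methyltransferase *E(z)* was called. *E(z)* (chr3L:10634575-10638130) was at 55.1, 46.8 and 65.1 normalized CPM in naïve flies, 44.2, 41.5 and 48.2 in light, 41.3, 45.9 and 49.4 in rest5, 41.8, 44.6 and 43.1 in rest10 and 44.2, 39.1 and 45.5 in rest15. All rest10 and rest15 libraries lay below the naïve ones, which spread widely. It fell by 22.4% in rest10 (log2 fold change -0.37 ± 0.12, adjusted p = 0.0207) and by 22.8% in rest15 against naïve flies (log2 fold change -0.37 ± 0.12, adjusted p = 0.0448). *E(z)* in rest10 and rest15 had almost the same level, with a log2 fold change of -0.01 ± 0.12 between them. The call in rest15 ended under 13 of 22 alternatives and the call in rest10 under 4. Without naïve replicate 3, the highest library, the values were -0.24 (adjusted p = 0.157) in rest10 and -0.25 (adjusted p = 0.247) in rest15.

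The WD-repeat subunits *esc* and *escl*, which are partly redundant, had the lowest counts of the 32 genes, and their errors were the largest. *esc* was at 2.47, 4.38 and 5.56 normalized CPM in rest15 against 7.06, 6.90 and 7.04 in rest10, without overlap, and its log2 fold change of -0.73 ± 0.27 had an adjusted p of 0.0613. For *escl* it was -0.49 ± 0.31 (adjusted p = 0.319). The *esc* difference passed the threshold without naïve replicate 2 or without rest15 replicate 3. *Su(z)12*, which holds the complex together, was -0.33 ± 0.13 in rest15 against rest10 (adjusted p = 0.0785), and *Pcl*, an accessory subunit, ranged over 25.2 to 32.3 normalized CPM and was not called.

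The remaining members were not called in any comparison. *Asx*, the partner of the deubiquitinase Calypso, had a log2 fold change of 0.00 ± 0.12 in rest10 against naïve flies, and *Scm*, which links PRC1 to other Polycomb complexes, had -0.04 ± 0.13. In PhoRC, the DNA-binding *pho* and *phol* had 0.16 ± 0.11 and 0.24 ± 0.11, and *Sfmbt*, which binds methylated histones, had 0.03 ± 0.11. For *phol* the 3 libraries of each illuminated group lay above the naïve ones, at 34.3, 43.8 and 38.7 normalized CPM in rest10 against 33.3, 32.02 and 33.3, with adjusted p from 0.117 in rest10 to 0.504 in light. *Trl*, the GAGA factor, was at 39.5, 33.9 and 27.1 in light against 26.5, 18.1 and 28.8 in naïve flies, and its log2 fold change of 0.45 ± 0.17 (adjusted p = 0.103) was the highest of the 32 genes in light, with a 95% interval of 0.10 to 0.80. In rest10 it was 0.36 ± 0.17 (adjusted p = 0.119), with all rest10 libraries above the naïve ones, at 29.2, 34.2 and 30.7 normalized CPM, and in rest15 0.03 ± 0.17. In the annotation used here 71.0% of the exon length of *Trl* is shared with *CG42507* on the same strand, which had 0 counts in every library. How reads in that stretch were counted is not known, so the counts of *Trl* may leave out part of the gene.

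A further 63 genes were listed: other subunits of these and related complexes, factors that bind response elements, and other trithorax-group genes. Of these 61 were tested, and 8 were called higher and 9 lower in rest10 against naïve flies. The counts stand beside the 14.5% and 13.9% of all tested genes, as do those of the lists that follow. DESeq2 split the calls among the 61 genes 10 and 8, upper quartile scaling 5 and 12, library size alone 3 and 14, and leaving out naïve replicate 2 gave 5 and 7. In rest15 against naïve flies 0 were higher (3 at an unadjusted p under 0.05, 1 by DESeq2) and 1 was lower, *Dsp1* (-0.38 on the log2 scale, as for all values below). In that comparison 5.41% of all tested genes were called higher and 4.24% lower. Among the other COMPASS subunits in rest10 against naïve flies, 2 of 10 were lower and the rest not called, *Dpy-30L1* (-0.78) and *Lpt* (-0.43, the partner of Trr), with a median of -0.13. Of 6 other BAP and PBAP subunits 2 were lower, *Bap170* (-0.54) and *dalao* (-0.53), with a median of -0.20. *dalao* was higher in rest15 against rest10 (0.47, adjusted p = 0.0323). Of 13 subunits of INO80 and Tip60/Domino 2 were lower, *Arp5* (-0.56) and *rept* (-0.53), with a median of -0.18. For these 3 lists the median was below 0 under every scaling, and so was the median of all tested genes. The latter was -0.05 with TMM, -0.03 with DESeq2, -0.11 with upper quartile scaling and -0.17 with library size alone. Of 6 ISWI partners 0 were called in rest10 against naïve flies (0 at an unadjusted p under 0.05, and 0 by DESeq2), with a median of -0.07, while *E(bx)* was lower (-0.32) and *Nurf-38* higher (0.32) in rest15 against rest10.

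On the Polycomb side of the list, *calypso*, which encodes the deubiquitinase partnered with Asx, was lower in rest10 against naïve flies (-0.48, not called without naïve replicate 2), and among 4 PRC2 accessory genes *corto* (0.33) and *jing* (0.30) were higher and *Jarid2* (-0.47) lower, with a median of 0.10 (-0.01 with library size alone). Of 3 other PRC1 genes, *l(3)73Ah* was higher (0.40), with a median of 0.23. Among 8 factors that bind response elements *grh* (0.72) and *cg* (0.26) were higher and *Adf1* (-0.34) lower, with a median of 0.11 (-0.01 with library size alone). *grh*, which encodes the transcription factor Grainyhead, was also called higher in light (0.40) and rest5 (0.71) and lower in rest15 against rest10 (-0.87, adjusted p = 8.05e-08), the same set of calls as *trx*. Of 3 tested NuRD subunits *simj* was higher (0.35), with a median of 0.15, and of 7 other trithorax-group genes *skd*, a Mediator subunit (0.47), and *tna* (0.30) were higher, with a median of 0.10 (-0.02 with library size alone). *skd* fell in rest15 against rest10 (-0.45, adjusted p = 0.00160).

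Homeotic and segmentation genes are the classical targets that Polycomb silences. Of 14 such genes 11 were tested (*abd-A*, *Abd-B* and *eve* had too few counts). In rest10 against naïve flies 6 of the 11 rose, *lab*, *pb*, *Dfd*, *hh*, *wg* and *Dll*, 0 fell (0 at an unadjusted p under 0.05, and 0 by DESeq2), beside 14.5% of all tested genes called higher and 13.9% lower, and the median log2 fold change was 0.71 against -0.05 for all tested genes. Library size alone left 4 of the 6 calls, and the median was between 0.59 and 0.72 under the 4 ways of scaling. In rest15 against rest10, 0 rose (0 at an unadjusted p under 0.05, and 0 by DESeq2) and 4 fell (*lab*, *Dfd*, *Scr* and *Dll*), beside 6.71% of all genes called higher and 10.2% lower, with a median of -0.44 against 0.03. That count was 2 without rest10 replicate 3, rest15 replicate 1 or rest15 replicate 2. *Dll*, which patterns limbs and sensory organs, was at 51.5, 50.5 and 61.1 normalized CPM in naïve flies, 79.8, 61.9 and 77.7 in light, 95.1, 83.7 and 100.3 in rest5, 89.5, 88.7 and 87.6 in rest10 and 68.9, 67.5 and 54.7 in rest15. It rose in light, rest5 and rest10 without overlap with the naïve libraries, by 0.43 ± 0.11 (adjusted p = 0.0166), 0.78 ± 0.11 (adjusted p = 1.13e-05) and 0.71 ± 0.11 (adjusted p = 2.64e-05) on the log2 scale. In rest15 it fell by 28.2% against rest10 (log2 fold change -0.48 ± 0.11, adjusted p = 0.00327).

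*lab*, the most anterior Hox gene, was at 15.9, 13.9 and 18.1 normalized CPM in naïve flies, 21.0, 19.3 and 20.9 in light, 26.8, 25.2 and 23.4 in rest5, 27.5, 30.2 and 24.7 in rest10 and 18.3, 19.3 and 15.6 in rest15. Its log2 fold change was 0.66 ± 0.14 in rest5 (adjusted p = 0.00165) and 0.79 ± 0.14 in rest10 (adjusted p = 1.29e-04), and -0.64 ± 0.14 in rest15 against rest10 (adjusted p = 0.00194). The signaling ligands *wg* and *hh* were low throughout. *wg* was at 13.3, 12.8 and 13.4 normalized CPM in rest10 against 8.24, 4.47 and 8.72 in naïve flies (log2 fold change 0.88 ± 0.24, adjusted p = 0.00690), and *hh* at 5.05, 6.42 and 7.35 against 3.90, 3.52 and 1.98 (0.98 ± 0.32, adjusted p = 0.0230). The Hox genes *pb* and *Dfd* had 0.72 ± 0.25 (adjusted p = 0.0303, and 0.0873 without naïve replicate 2) and 0.42 ± 0.13 (adjusted p = 0.0166). *Scr* had 0.55 ± 0.21 (adjusted p = 0.0505) and fell in rest15 against rest10 (-0.66 ± 0.22, adjusted p = 0.0337). *Antp*, *Ubx*, *en* and *inv* were not called, with log2 fold changes from -0.27 to 1.03 in rest10. Summed over the 14 genes, the level was 212 to 216 normalized CPM in rest10, against 127 to 145 in naïve flies, and 143 to 164 in rest15. The summed level of *kkv*, *Pxd* and *Cyp4g1*, listed here as cuticle and epidermis markers, was 195 to 212 in rest10. It was 94.3 to 119 in naïve flies and 23.8 to 36.0 in rest15, so both sums were highest in rest10 of these 3 groups. *kkv* and *Pxd* were higher in rest10 than in naïve flies (1.52 and 2.41 on the log2 scale) and lower in rest15 than in rest10 (-3.68 and -5.83). *Cyp4g1* went the other way, lower in rest10 (-4.47) and higher in rest15 (3.03) in the same comparisons. Whether *Cyp4g1* marks the same cells as *kkv* and *Pxd* was not tested, nor was the part of cells that express these genes in the result.

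**Figure D3:**
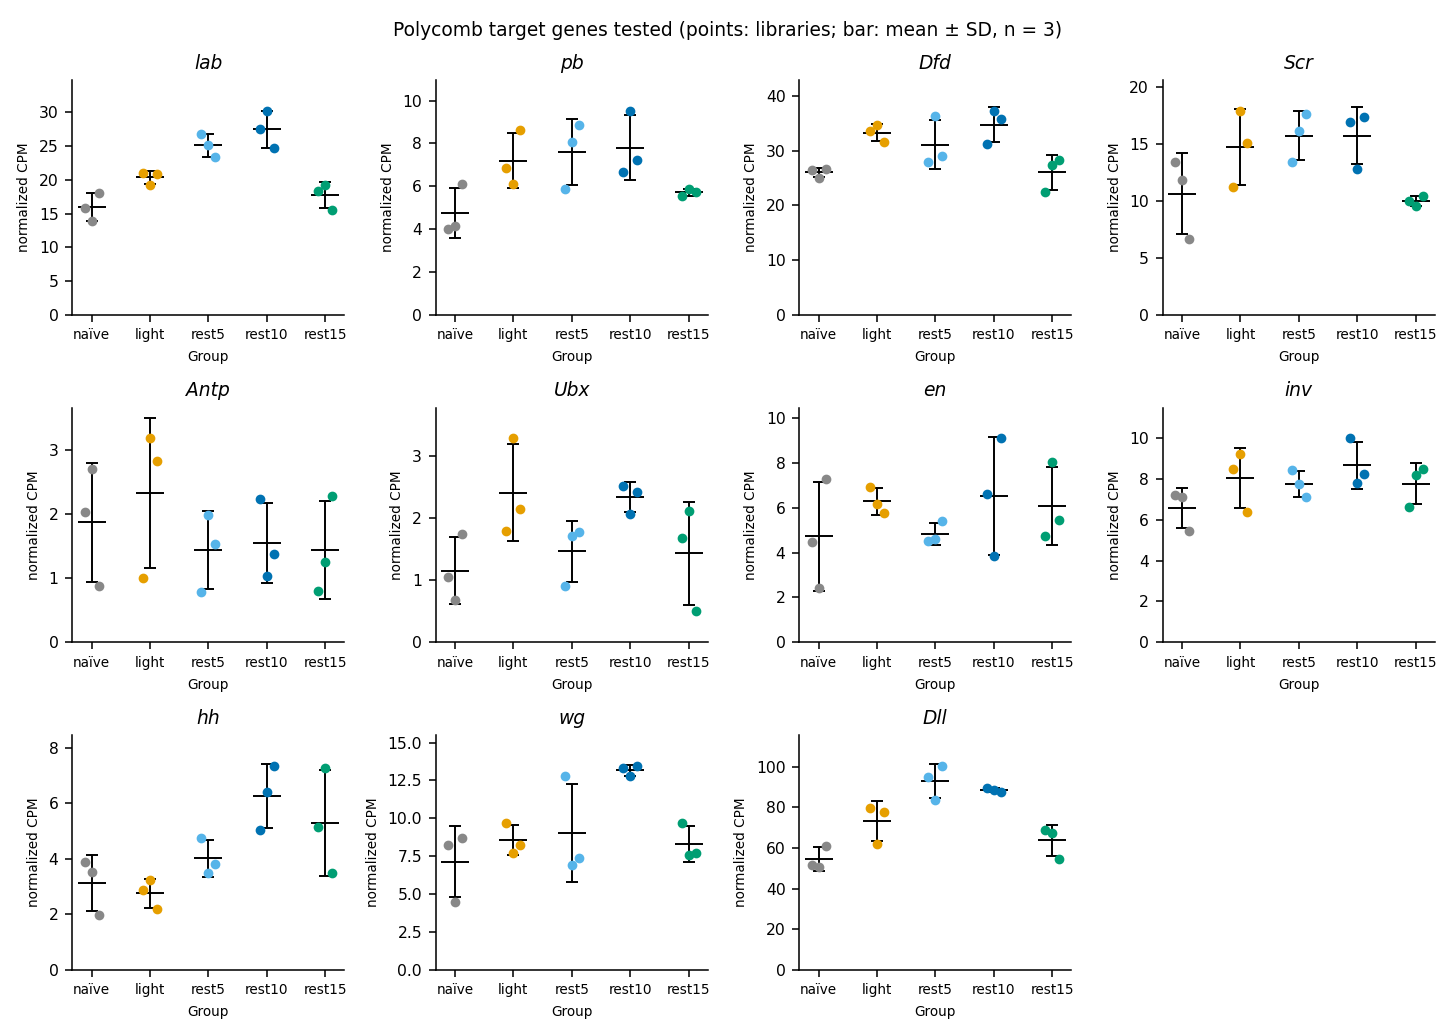
Normalized CPM of the 11 tested Polycomb target genes (each axis from 0), with 1 point per library in the 5 groups and the mean ± SD (n = 3) in black. *Dll* stands at 93.04 ± 8.50 in rest5 and 88.6 ± 0.973 in rest10, and *lab* at 27.5 ± 2.79 in rest10, above their naïve points.

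The binding sites, peaks found by the authors in at least a pair of the 3 illuminated replicates, show where CBP, the deacetylase Rpd3 and its partner CoRest-C sat at the same genes. A gene had a site when it touched the gene or 1 kb upstream. CBP had sites at 17 of the 32 genes, beside 43.3% of the 11459 tested genes with a position, Rpd3 at 22, beside 34.2%, CoRest-C at 9, beside 13.2%, and all 3 at 7, beside 8.71%. The members were long genes, with a median of 7785 bp against 2452 bp for the tested genes, and the part of gene length in these shares was not tested. The lists have no replicate values and no naïve counterpart, so the fold enrichments of MACS are only described within a protein.

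All 3 proteins had sites at *ph-p*, *ph-d*, *brm*, *mor*, *osa*, *kis* and *dom*. CBP and Rpd3 without CoRest-C were at *Pc*, *Psc*, *Su(z)2*, *Pcl*, *Asx*, *phol*, *ash2* and *Mi-2*, and Rpd3 alone at *E(z)*, *Su(z)12*, *Scm*, *trr*, *ash1* and *Iswi*. *Trl* had CBP alone, *Sfmbt* Rpd3 and CoRest-C, and 8 genes (*Sce*, *esc*, *escl*, *pho*, *Set1*, *Utx*, *Snr1* and *Chd1*) had no site. Of the 44 CBP sites 17 covered a start site, of the 25 Rpd3 sites 21 and of the 11 CoRest-C sites 6. Of the 11 CoRest-C sites 10 overlapped a CBP site and 7 overlapped both others. Of the 4 members higher in rest10, 3 had a CBP site (not *Set1*), 2 an Rpd3 site and 2 a CoRest-C site. Of the 4 lower, 1 had a CBP site (*Pc*), 3 an Rpd3 site and 0 a CoRest-C site. Among the 24 not called 13 had a CBP site, 17 an Rpd3 site and 7 a CoRest-C site. These counts stand beside 43.3%, 34.2% and 13.2% of tested genes with a site of CBP, Rpd3 and CoRest-C. The shares among all genes called higher or lower were not computed, and no test was made on these counts.

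**Figure D4:**
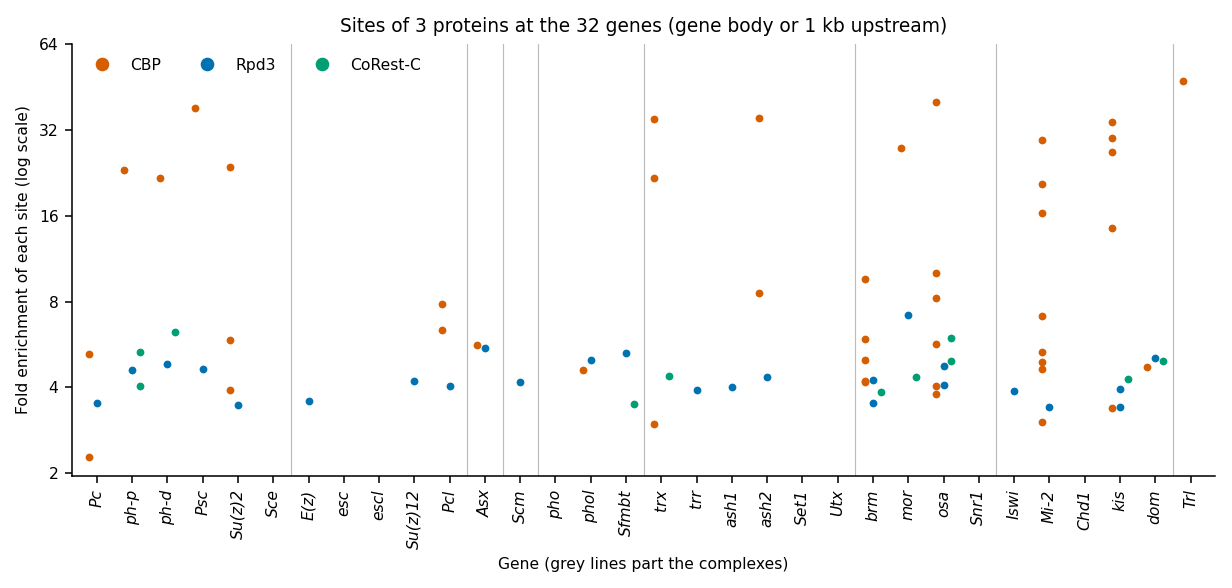
Fold enrichment (log axis) of each site of CBP, Rpd3 and CoRest-C at the 32 genes, 1 point per site, with grey lines between complexes. CBP reaches 47.5 at *Trl* and 8 points at *Mi-2*, and the genes with no point have no site.

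The CBP site with the highest fold enrichment, 47.5, was at *Trl* and spanned 5.80 kb over its start sites, with neither Rpd3 nor CoRest-C. At *Mi-2* CBP had 8 sites, the strongest (29.6) lying 12.29 to 15.30 kb inside the gene, and 1 Rpd3 site (3.41) over the start site. At *osa* CBP had 6 sites, among them 39.9 over the start site, and the CoRest-C sites lay 14.15 to 14.72 kb and 16.55 to 18.29 kb downstream of it. At *mor* the Rpd3 site had the highest fold enrichment of Rpd3 at these genes, 7.20, and CoRest-C (4.37) covered the start while CBP (27.6) ended 0.15 kb before it. At *ash2* a CBP site (35.1) covered 2 of the 3 start sites, and a weaker CBP site (8.60) covered 1, at the annotated 5′ end of the gene. An Rpd3 site of 2.58 kb (4.35) covered all 3.

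**Figure D5:**
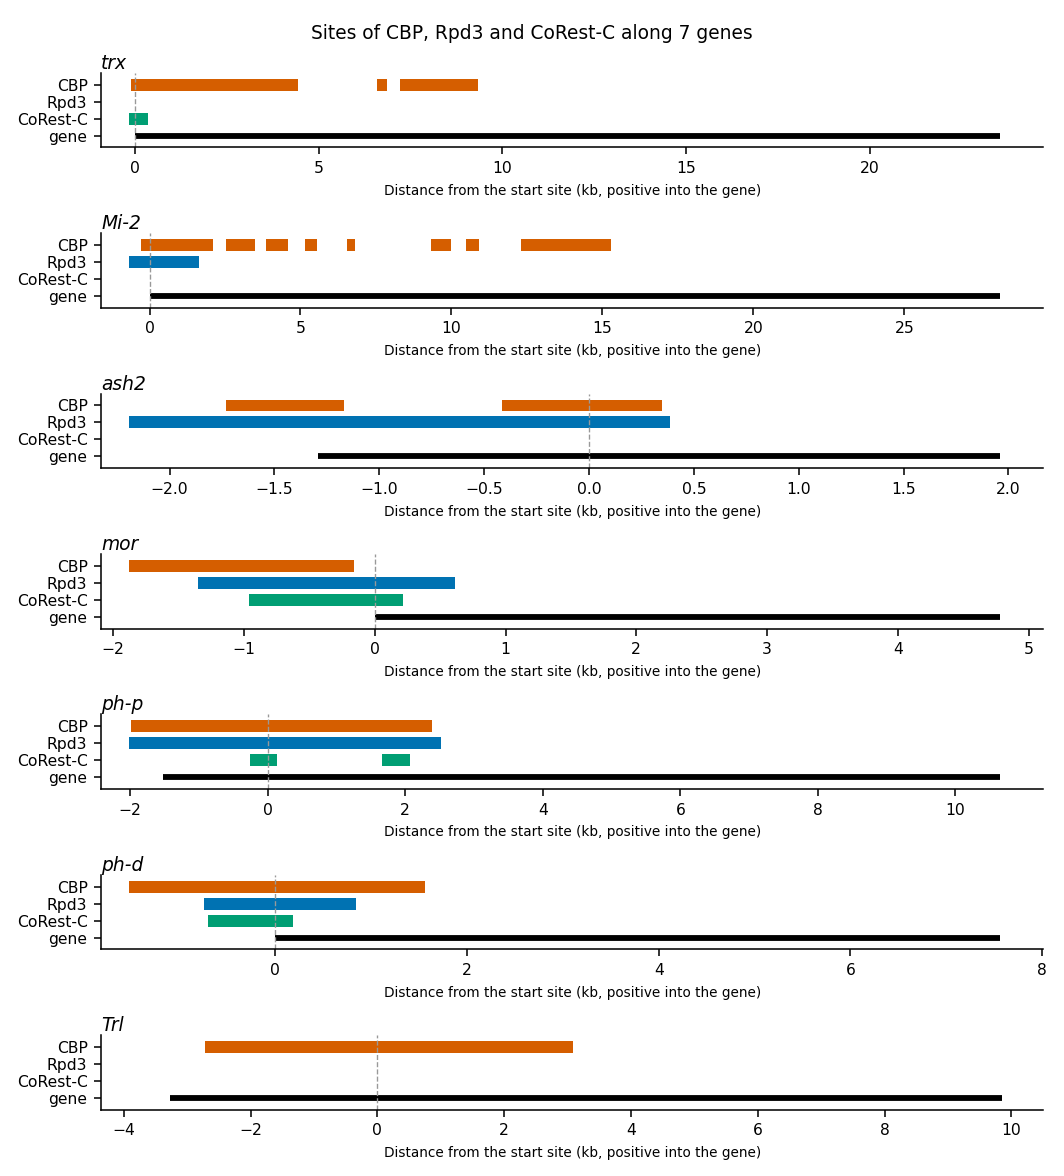
Sites of CBP, Rpd3 and CoRest-C (colored bars) and the gene (black bar) along 7 genes, by distance in kb from the start site used (dashed line, positive into the gene). At *trx* the 4.55 kb CBP site and the CoRest-C site meet at the start site with no Rpd3, and at *ph-p* and *ph-d* all 3 overlap.

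Promoters of 4 further genes are printed because sites of several proteins cover them and they differ in the motifs they hold, given in capitals as GAGAG or GCCAT on either strand, overlapping matches included. That of *ash2* (chr3R:24651167-24651466, plus strand) has 8 matches to GAGAG, all in 1 repeat. That of *Mi-2* (chr3L:19910166-19910465, minus strand) has 2 to GAGAG and 1 to GCCAT, and the adjacent copies *ph-p* (chrX:2136806-2137105, minus strand) and *ph-d* (chrX:2123237-2123536, minus strand) have 4 and 3 to GAGAG and share a run of 74 identical bases, as is visible in the pair.
ash2: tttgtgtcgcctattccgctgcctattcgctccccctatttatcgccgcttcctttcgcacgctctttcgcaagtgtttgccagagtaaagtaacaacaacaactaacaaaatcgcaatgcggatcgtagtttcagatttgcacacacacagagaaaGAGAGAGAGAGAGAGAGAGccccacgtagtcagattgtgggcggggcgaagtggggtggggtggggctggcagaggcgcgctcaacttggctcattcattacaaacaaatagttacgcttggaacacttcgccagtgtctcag
Mi-2: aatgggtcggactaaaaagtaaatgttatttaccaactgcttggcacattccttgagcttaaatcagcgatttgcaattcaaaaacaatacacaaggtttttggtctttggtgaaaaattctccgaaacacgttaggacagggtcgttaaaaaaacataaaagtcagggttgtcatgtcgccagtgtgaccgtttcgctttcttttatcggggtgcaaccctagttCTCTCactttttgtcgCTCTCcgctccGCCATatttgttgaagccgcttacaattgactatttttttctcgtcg
ph-p: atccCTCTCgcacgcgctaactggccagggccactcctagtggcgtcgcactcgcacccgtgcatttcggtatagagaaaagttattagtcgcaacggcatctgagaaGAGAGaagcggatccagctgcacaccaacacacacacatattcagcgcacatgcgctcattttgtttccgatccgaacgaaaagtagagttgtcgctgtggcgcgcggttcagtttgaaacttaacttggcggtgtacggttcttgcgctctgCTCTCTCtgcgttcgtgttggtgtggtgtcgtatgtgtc
ph-d: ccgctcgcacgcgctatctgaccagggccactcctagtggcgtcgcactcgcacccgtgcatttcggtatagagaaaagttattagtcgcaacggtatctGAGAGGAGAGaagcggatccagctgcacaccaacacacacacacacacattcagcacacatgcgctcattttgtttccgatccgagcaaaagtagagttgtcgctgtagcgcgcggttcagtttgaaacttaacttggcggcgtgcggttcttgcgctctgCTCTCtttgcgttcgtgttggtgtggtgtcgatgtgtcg
GAGAG was found in 7 and GCCAT in 14 of the 26 member windows read, with 1 start site per gene. No window was read for *Psc*, *Su(z)2*, *Pcl*, *Asx*, *Iswi* and *dom*. The shares given above are over 16579 start sites of tested genes, not limited to 1 per gene. The member counts are therefore not like for like with those shares, and no comparison is drawn. Sequences are from the RefSeq copy of dm6, a match is a description of letters, and no binding of the GAGA factor or of Pho was measured.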

How the data were processed

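Nuclear RNA of fixed, immunoprecipitated MB nuclei was sequenced in 15 libraries of 5 groups (3 each), and CBP, Rpd3 and CoRest-C were mapped by ChIP-seq in 18 samples beside 1 input. The authors trimmed the reads, mapped them to dm6 with STAR and counted them per gene with HTSeq (strand setting not given in the sources used here), and they deposited these raw counts without normalization. RNA was selected with oligo-dT after fragmentation, so reads come mostly from 3′ ends. The MACS lists deposited by the authors give, for sites found in at least 2 of 3 illuminated replicates, positions on dm6, -log10 p-values and the fold enrichment, a ratio over background. Their table of fold changes and p-values from DESeq2 was not used, and 0 sample columns were left unmapped.

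Here the counts were tested with edgeR 4.0.16 (R 4.3.3): TMM scaling, filterByExpr by group (11670 of 15634 genes with counts kept), 1 quasi-likelihood fit of the 15 libraries and Benjamini-Hochberg adjustment over all tested genes. The biological coefficient of variation was 13.4%. Library totals of 10392334 to 18809246 counts set the precision. DESeq2 1.42.0, other scalings and filters, fits of the 6 libraries compared, a replicate block, stricter thresholds and leaving out each library were the alternatives. Those for the Polycomb target genes and the other subunits were chosen after seeing the data. The edgeR and DESeq2 steps were tested on simulated data.

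Sites were assigned to a gene when at least 1 bp overlapped its body or the 1 kb upstream, in the Ensembl annotation of dm6. Promoters were read from the RefSeq genome of the same build. Entries repeated in a list were counted once. Python 3.11, pandas 2.3.3 and matplotlib 3.10.9 were used.

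The 32 genes and all lists were chosen with earlier results of these data known. All 32 are named. Values in every library are given for those called in at least 1 comparison, and for other lists the called genes of largest change in rest10. *Snr1*, *mor*, *Psc*, *esc*, *phol*, *Trl* and *Utx*, and the genes of other lists named for other comparisons, were added after their values were seen.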

Additional observations from a re-analysis of the deposited data

Results flagged for a closer look

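In rest15 against rest10, a direct test between the times after the light, 2 of the 32 genes and 4 Polycomb target genes differed. *trx* had a log2 fold change of -0.60 and *ash2* -0.38, so that both were lower in rest15. Among the targets, *lab* had -0.64, *Dfd* -0.41, *Scr* -0.66 and *Dll* -0.48. All 6 passed the edgeR threshold named in the report. Over the 22 alternatives *trx*, *lab* and *Dll* kept the call, and it was lost under 2 for *ash2*, 4 for *Dfd* and 6 for *Scr*. Between the same groups 10 of 10 photoreceptor, 7 of 8 fat body and 6 of 6 tested male reproductive tract markers were higher in rest15 (median log2 fold changes of 0.69, 0.59 and 5.87). Of the 3 cuticle and epidermis markers, *kkv* (-3.68) and *Pxd* (-5.83) were lower and *Cyp4g1* (3.03) was higher. The part of all these markers in the results was not tested.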

How the results depend on the processing

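No called member or called Polycomb target gene changed its direction under any alternative, and the called genes of other lists were not checked for this. With library size alone the median of the 32 genes in rest10 against naïve flies turned to -0.06 (against 0.06), and the list medians named in the report also turned below 0. Of the 16 calls on single members, 3 were kept under the 22 other fits, namely *trx* in rest5, in rest10 and in rest15 against rest10, and 13 were lost at least once. The stricter thresholds are counted apart from these, and a fold change of at least 1.5 ended the *trx* call in rest5. The number of members called was moved by more than 1.5 times as follows. Fits of only the 6 libraries compared gave 0 in light against naïve flies (against 2 in the fit of all 15), 1 in rest5, 4 in rest10, 0 in rest15 and 6 in rest15 against rest10. An adjusted p under 0.01 left 1, 1, 2, 0 and 1 in the same order, and a fold change of at least 1.5 left 0, 0, 1, 0 and 1. Library size alone gave 4 in rest5. For the Polycomb targets, an adjusted p under 0.01 left 3 in rest10 and 2 in rest15 against rest10, where a fold change of at least 1.5 left 2.

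Leaving out each library in turn gave 1 to 2 members in light, 1 to 2 in rest5, 2 to 9 in rest10, 0 to 2 in rest15 and 1 to 6 in rest15 against rest10. It gave 1 to 6 members in the joint test over the 5 groups, and 4 to 7 targets in rest10 and 2 to 5 in rest15 against rest10. The highest count in rest15 against rest10 came without naïve replicate 2, and the lowest without rest10 replicate 1 or rest15 replicate 1.

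No strong pairing of the samples by replicate number was seen: 0 of 30 same-numbered pairs correlated above 0.1 in their deviations (-0.10 to 0.05), and 6 of 15 libraries correlated best with their own number. Such a check cannot exclude that same-numbered samples were prepared together. With the replicate number as a block the joint test called 2 members (*trx* and *Set1*) against 4, and the 5 pairwise counts were the same. With only sites above the median fold enrichment of their list, 13 members had an Rpd3 site and 4 had sites of all 3 proteins. Counts of under 100 in a library limit what can be said of *esc* and *escl*, where the largest standard error was 0.31.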
